A study of Mus musculus with 14 samples.

Results

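The genes described here encode the machinery that makes, binds and removes the poly(A) tails of messenger RNAs. They were listed by role: 6 subunits of the cleavage and polyadenylation specificity factor (CPSF), 3 of the cleavage stimulation factor (CstF), 3 of cleavage factor I and 2 of cleavage factor II, the scaffold proteins Sympk and Rbbp6, 3 poly(A) polymerases, 3 poly(A)-binding proteins, 11 subunits of the CCR4-NOT deadenylase, both subunits of the PAN2-PAN3 deadenylase, and the deadenylase Parn. The list holds 36 genes, of 27144 in the tables of the RNA immunoprecipitation (RIP) libraries and 27998 in those of the cultured single cells.

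The cells were mouse neural stem cells from the sub-ventricular zone of adult animals, measured in 14 samples. Wildtype cells were cultured for 3 days with BMP4 or with EGF, with 1 single-cell library each. Freshly isolated, untreated cells came from wildtype mice and from APLP1-/- mice, again with 1 single-cell library each, plus a library of hashtag antibody counts for each of them. Neurospheres, which are free-floating cultures of neural stem cells, gave 8 RIP libraries in 4 groups of 2: wildtype input RNA, wildtype RNA precipitated with IgG, wildtype RNA precipitated with an antibody to CPEB4, and RNA precipitated with that antibody from CPEB4-/- neurospheres. The labels name no input for the knockout, so wildtype input served for both genotypes. In the series' own design text the stated interests were 3′UTR mapping positions in active and quiescent cells, the effect of APLP1 loss, and the binding of CPEB4 to mRNA.

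When a pre-mRNA is made into mRNA, CPSF reads the polyadenylation signal and cuts the transcript, CstF and cleavage factor I read the sequences around the site, and a poly(A) polymerase adds the tail. Nuclear Pabpn1 and cytoplasmic Pabpc1 and Pabpc4 coat the tail. PAN2-PAN3 and then CCR4-NOT shorten it, and loss of the tail leads to decay or silencing of the mRNA. CPEB proteins, of which CPEB4 is a member, bind elements in 3′UTRs and recruit either the cytoplasmic polymerase Tent2 (also called Gld2) or deadenylases, so that tail length and translation of their targets can change after export from the nucleus.

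The tables held 887 BMP4 cells with 17313999 counts and 1410 EGF cells with 33603623 counts. Fresh tables were much shallower, with 2209 wildtype cells and 1133263 counts, and 1879 cells labelled APLP1-/- with 1227695 counts. RIP libraries held 10054346 to 17466296 counts. The labels do not say whether the RIP replicates came from separate cultures, so p-values measure the spread between these libraries, which may be technical. Of 12 quiescent stem cell and astrocyte markers, all were detected in both cultures, and their summed level was 16398.7 CPM (counts relative to the library total) under BMP4 and 2944.4 CPM under EGF. The 3 cell cycle markers Mki67, Top2a and Cdk1 summed to 39.7 CPM under BMP4 against 352.2 CPM under EGF. Of 6 neural stem cell markers, Sox2, Sox9 and Fabp7 were at like levels in both cultures, whereas Nes (8.49 and 179 CPM), Vim (413 and 921 CPM) and Olig2 (151 and 354 CPM) were lower with BMP4. Of 8 microglia and macrophage markers, 1 was detected with BMP4 and 2 with EGF, at summed levels of 0.7 and 1.5 CPM.

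In the cultures, the tail machinery was lower in the BMP4 library than in the EGF library for most members, relative to other genes. The median log2 ratio of BMP4 over EGF was −0.20 over the 36 members and 0.15 over the 14502 genes with 10 or more counts. A 2-fold difference was reached by 5 members, all lower with BMP4, against 15.4% of all genes lower and 23.1% higher by that much, and by 0 members in the other direction. With 1 library per condition there is no replicate check and no test; the intervals given are exact 95% intervals that cover counting error only. By these intervals 20 members had a higher level under EGF (32.5% of all genes did) and 6 under BMP4 (43.2%).

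**Figure D1:**
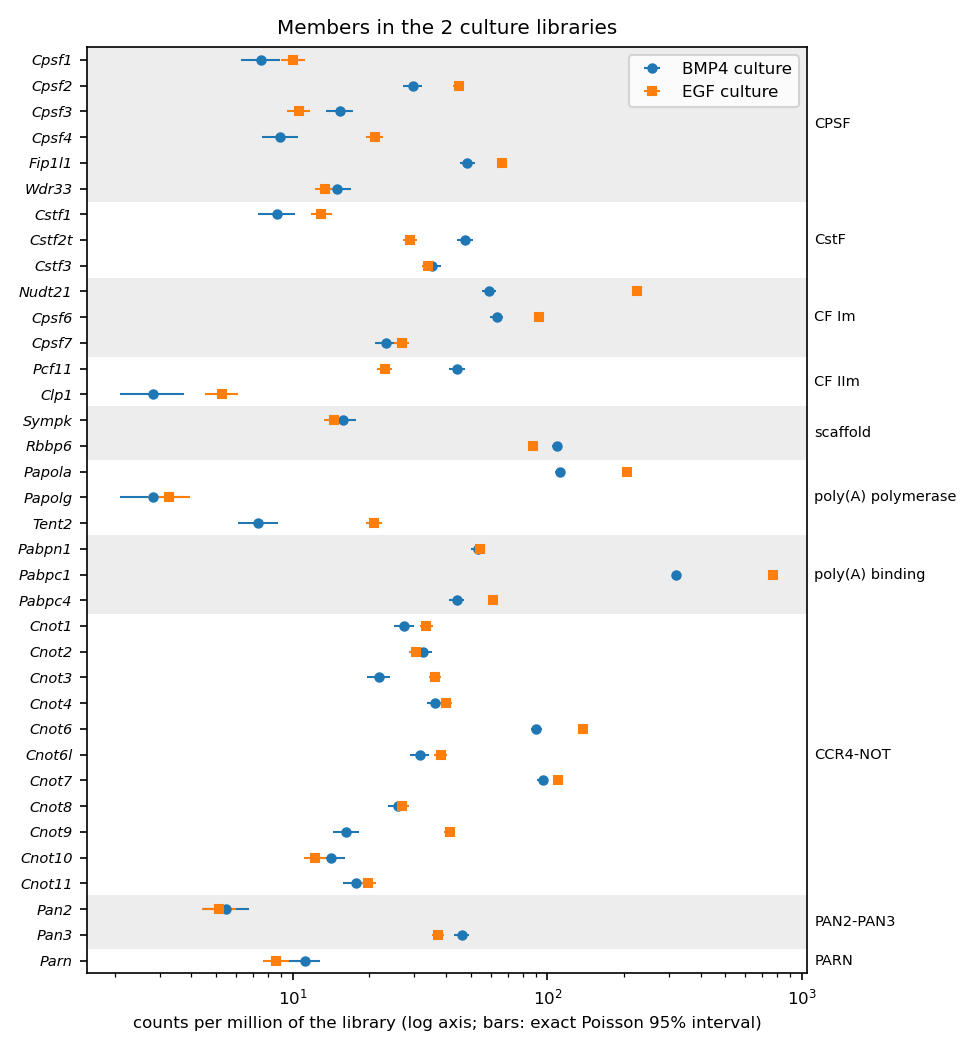
Level of each of the 36 members in the BMP4 and EGF libraries, in CPM on a log axis, grouped by role, with exact 95% intervals for counting error. Nudt21 (59.1 and 225 CPM), Pabpc1 (320.0 and 769 CPM), Cnot9, Tent2 and Cpsf4 lie furthest to the EGF side, and Pcf11 (44.1 and 22.9 CPM) furthest to the BMP4 side.

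Among the cleavage factors, Nudt21 differed most between the cultures. Nudt21, the small subunit of cleavage factor I that reads UGUA elements upstream of cleavage sites, was at 59.1 CPM under BMP4 against 225 CPM under EGF, a 3.81-fold higher level with EGF (interval 3.57 to 4.07). The other subunits of the same factor were closer together: Cpsf6 was at 63.2 and 93.1 CPM, and Cpsf7 at 23.2 and 26.8 CPM. Cpsf4, the CPSF subunit that contacts the AAUAAA signal together with Wdr33, was at 8.95 and 21.0 CPM, 2.34-fold higher with EGF (1.96 to 2.80). Wdr33 itself was at 14.96 CPM under BMP4 against 13.4 CPM under EGF. Cpsf3, the endonuclease that makes the cut, lay on the other side, at 15.3 CPM under BMP4 against 10.6 CPM under EGF (log2 ratio 0.54). Of the 6 CPSF members, 2 had a log2 ratio above 0 and 4 below (44.1% of all genes were below), with Wdr33 within counting error of equal levels.

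The members highest with BMP4 relative to EGF were 2 cleavage factor genes. Pcf11, the cleavage factor II subunit that also binds the tail of RNA polymerase II, was at 44.1 CPM under BMP4 against 22.9 CPM under EGF (1.92-fold, 1.74 to 2.13). Its partner Clp1 lay the other way, at 2.83 and 5.27 CPM. Cstf2t, an intronless relative of the CstF subunit Cstf2, was at 47.5 and 28.9 CPM (1.64-fold, 1.49 to 1.80). The scaffold Rbbp6 was at 109 and 88.0 CPM. Cstf2t lies within the intron-containing gene Prkg1, and the strand setting of the counting is unknown here, so reads of the overlapping genes cannot be told apart.

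All 3 poly(A) polymerases and all 3 poly(A)-binding proteins were at a log2 ratio below 0, as were 44.1% of all genes. Of these members, Pabpn1 and Papolg were within counting error of equal levels. Tent2, the cytoplasmic polymerase that lengthens tails, was at 7.34 CPM under BMP4 against 20.8 CPM under EGF (2.84-fold, 2.35 to 3.46). Papola, the main nuclear polymerase, was at 112 and 205 CPM (1.83-fold, 1.74 to 1.93). The general cytoplasmic tail-binding protein gene Pabpc1 was at 320.0 and 769 CPM (2.40-fold, 2.33 to 2.47). Its relative Pabpc4 was at 44.0 and 61.4 CPM, and nuclear Pabpn1 at 53.4 and 54.5 CPM.

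Of the 11 CCR4-NOT subunits, 9 had a log2 ratio below 0 (44.1% of all genes did). The median over the 11 subunits was −0.20, the same as over all members. Cnot9, a subunit that docks recruiting proteins and GW182-type silencing factors, was at 16.2 CPM under BMP4 against 41.3 CPM under EGF (2.55-fold, 2.24 to 2.91), and was the only one past 2-fold. Cnot3, a structural subunit, was 1.67-fold higher with EGF (1.49 to 1.88). The 4 catalytic subunits were closer together than Cnot9: Cnot6 was at 90.6 and 138 CPM, Cnot6l at 31.5 and 38.1 CPM, Cnot7 at 96.0 and 110.4 CPM, and Cnot8 at 25.99 and 26.9 CPM. The other deadenylases had ratios above 0: Pan3, which tethers PAN2 to the tail-binding protein, was at 46.0 and 37.1 CPM (log2 ratio 0.31), its partner Pan2 at 5.49 and 5.15 CPM, and Parn at 11.2 and 8.60 CPM (0.38).

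The cultures also differed in their share of cycling cells, here cells with any count of Mki67, Top2a or Cdk1: 169 of 887 (19.1%) with BMP4 and 1112 of 1410 (78.9%) with EGF. Among the remaining cells alone, the members' median log2 ratio was −0.11, against 0.19 over all genes, and 3 members stayed 2-fold lower with BMP4 (11.9% of all genes). Nudt21 was then 3.15-fold, Pabpc1 2.34-fold and Tent2 2.03-fold higher with EGF, while Cnot9 was at 1.66-fold and Cpsf4 at 1.63-fold. Pcf11 passed 2-fold in the other direction, with a log2 ratio of 1.49 (22% of all genes were 2-fold higher with BMP4). Within the EGF library, cycling over non-cycling cells gave a median log2 ratio of 0.27 for the members and 0.03 for all genes, with 0 members at 2-fold in either direction (6.01% of all genes higher, 3.16% lower). Cnot9 was the furthest, at 44.7 CPM in cycling and 25.1 CPM in non-cycling cells (1.79-fold, 1.504 to 2.13), whereas Pabpc1 was at 778.5 and 724 CPM. Within the BMP4 library the median was 0.13, against 0.07 over all genes, and again 0 members reached 2-fold (4.39% of all genes higher, 1.94% lower). Cells without counts of these 3 markers may still include cycling cells.

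Across the cells of each culture, the genes whose level per cell was most like that of Pabpc1 encoded ribosomal proteins. Rplp0 had the highest Pearson r with it over the 887 BMP4 cells (0.454), and Rps2 (0.425) and Rplp0 (0.406) over the 1410 EGF cells. For Nudt21 the nearest genes were Ran in the BMP4 cells (0.215), and H2afz (0.40) and Ran (0.38) in the EGF cells. Papola in the EGF cells was nearest to the chromatin gene Hmgb2 (0.324), and Cnot9 to Usp1 (0.26). All these values come from cells of 1 library scaled to equal totals, and genes with higher counts reach a higher r, so they are descriptions.

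Of 54 related genes, which are other tail enzymes, PABP partners, CPEB proteins and deadenylase recruiters, 51 had 10 or more counts in the cultures. With BMP4, 7 of these were 2-fold higher (23.1% of all genes were) and 2 were 2-fold lower (15.4%). The recruiter Zfp36, which brings CCR4-NOT to AU-rich mRNAs, was at 25.8 CPM under BMP4 against 3.07 CPM under EGF (8.42-fold, 6.79 to 10.5). Cpeb3 was at 21.9 and 3.13 CPM (7.01-fold, 5.63 to 8.78). Nanos1, another recruiter of CCR4-NOT, lay the other way at 3.06 and 17.7 CPM, and the phosphatase gene Ppp1ca, whose product is part of the cleavage complex, at 158 and 276.5 CPM.

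The promoters of the members were read for short motifs in windows of 250 bases before to 50 after the annotated start (RefSeq, GRCm38.p6), which were on hand for 31 members. A gene was counted if any of its windows held the motif. The core that ETS factors bind is CCGGAA or its reverse complement TTCCGG, read on either strand. It was present for 13 of 31 members (41.9%), against 29.9% of 10937 genes expressed in the cultures and 16.7% of 27025 genes in all. The NRF1 core GCATGC was present for 16.1% of members and 11.3% of expressed genes. For the NF-Y box CCAAT (reverse ATTGG) these shares were 32.3% and 43.0%, and for the Sp core GGGCGG (reverse CCGCCC) 67.7% and 68.5%. Nudt21 and Tent2, both high with EGF, hold an ETS core within a few bases of their start, and Cnot10 and Cstf3, which differed little between cultures, hold it upstream. Stretches of 30 bases around these matches are shown 5′ to 3′ on the gene's strand, with the core in capitals:
Nudt21 (chr8:94037022-94037051, minus strand): gagcgtattcacTTCCGGcgtgtgttccgc
Tent2 (chr13:93192399-93192428, minus strand): ctgatgattcctTTCCGGggtcacgttgat
Cnot10 (chr9:114640198-114640227, minus strand): gctggccccgccCCGGAAgtagcgtctccc
Cstf3 (chr2:104590429-104590458, plus strand): ccgcccactgtcCCGGAAgtgaatacggaa
The first listed windows of Cnot9 and of Cpsf4, genes that were also high with EGF, held no such core. Any further windows of these genes were not looked at singly. A match of 6 letters describes the sequence and does not show that a factor binds there.

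The fresh cells gave a second view of quiescent and active stem cells, in mice and without culture. The tables held 35 of the 36 members; Pabpn1 had no row. Clustering without the member genes gave 11 clusters, of which 6, holding 2226 cells, were quiescent stem cell or astrocyte-like and 1, holding 858 cells, was active stem cell or transit amplifying-like. The remaining clusters were neuroblast-like, oligodendrocyte-like, mature neuron-like and microglia-like. Active-like cells were deeper, with a median of 849 counts per cell against 315 in the largest quiescent-like cluster; the part of depth in the ratios was not tested. Many members had under 50 counts, and Pan3 alone stood at 1026 and 1081 CPM in the wildtype library and the other; levels are therefore not compared between the fresh and the cultured tables.

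Most members were higher in the active-like than in the quiescent-like cells, with 27 of 33 above a log2 ratio of 0 (4894 of 9671 genes were). Over the 33 members with 10 or more counts, the median log2 ratio of active-like over quiescent-like cells was 0.61, against 0.02 over 9671 genes. A 2-fold higher level was seen for 12 members (24.1% of all genes) and a 2-fold lower level for 1 (25.4%). In the wildtype library alone the median was 0.73 over 28 members, against −0.0001 over all genes. In the library labelled APLP1-/- it was 0.90 over 30 members, against 0.04. In both libraries 18 members were higher and 4 lower, and the share of all genes that did so was not counted. Summed over all members, the level was 4185 CPM in active-like and 3007 CPM in quiescent-like wildtype cells. In the other library these sums were 4257 and 2942 CPM. Pan3, which holds a large part of them, was lower in active-like cells in both libraries. With Pan3 left out, the sums were 3297 and 1919 CPM in wildtype, and 3354 and 1858 CPM in the other library. The libraries thus had nearly the same sums in active-like and in quiescent-like cells, although their genotype labels differ. Neuroblast-like cells had sums over all members of 3944 CPM in wildtype and 4662 CPM in the other library. These sums were 2986 and 4569 CPM in oligodendrocyte-like, 3385 and 3103 CPM in mature neuron-like, and 3536 and 3931 CPM in microglia-like cells.

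Of the 5 members that were 2-fold higher in the EGF culture, 4 were also 2-fold higher in the active-like fresh cells, as were 62.8% of 1190 genes that were 2-fold higher with EGF. Cnot9 had 614 CPM in active-like and 169 CPM in quiescent-like wildtype cells, and 552 and 205.5 CPM in the library labelled APLP1-/- (3.12-fold over both, 2.62 to 3.75). Pabpc1 had 111 and 21.7 CPM in the wildtype library and 105 and 48.1 CPM in the other (3.27-fold, 2.15 to 5.14). Nudt21 had 24.5 and 15.8 CPM in wildtype and 43.4 and 16.02 CPM in the other library (2.26-fold over both, 1.18 to 4.57), and the interval in wildtype alone included equal levels (0.532 to 4.63). Cpsf4 had 33 counts in active-like and 6 in quiescent-like cells (5.27-fold, 2.18 to 15.4). By library these were 9 and 5 counts in wildtype, where the interval included equal levels (0.748 to 9.44), and 24 and 1 in the other. Tent2 had only 6 and 8 counts, and no direction could be read at this depth.

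Other cleavage factor genes were also higher in active-like cells. Cpsf2, the CPSF subunit that pairs with the endonuclease, had 67.3 CPM in active-like and 11.3 CPM in quiescent-like cells (5.94-fold, 3.03 to 13.0). Cpsf3 had 13 counts against 1 (12.5-fold, 1.87 to 529.7), with 2 and 0 of these in the wildtype library. Cpsf7 had 116 and 43.1 CPM (2.70-fold, 1.85 to 4.02) and Cstf1 had 19 and 7 counts (2.60-fold, 1.05 to 7.33). The Cstf1 value rests on the wildtype library (9 and 2 counts); in the library labelled APLP1-/- its log2 ratio was 0.37 and the interval included equal levels (0.422 to 5.05). Cpsf3 was on the opposite side in the cultures, where it was 1.45-fold higher with BMP4.

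Within CCR4-NOT, 5 of the 11 subunits were 2-fold or more higher in active-like cells, as were 24.1% of all genes. The catalytic subunit Cnot6 had 218 CPM in active-like and 71.4 CPM in quiescent-like cells (3.06-fold, 2.29 to 4.13), and its relative Cnot6l had 165 and 69.1 CPM (2.39-fold, 1.76 to 3.27). The structural subunit Cnot2 had 93 and 31 counts (2.88-fold, 1.90 to 4.47). Cnot3 had 27 and 9 counts, of which 8 and 5 were wildtype, with an interval there that included equal levels (0.637 to 8.58). Its level followed that of its neighbour Leng1 across cells with r = 0.93, as that of Cpsf1 followed Adck5 with r = 0.895; these genes overlap and their reads cannot be told apart. Cnot4, a ubiquitin ligase attached to the complex, lay the other way at 51.1 and 89.5 CPM, and its interval excluded equal levels (1.75-fold higher in quiescent-like cells, 1.21 to 2.57). Its log2 ratio was −1.49 in the wildtype library and −0.39 in the library labelled APLP1-/-, where the interval included equal levels (0.458 to 1.28). Both PAN subunits were also lower in active-like cells: Pan3 had 897 and 1086 CPM, and Pan2 had 2 and 11 counts. The 2 counts of Pan2 were both wildtype, where the quiescent-like cells had 1 count.

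**Figure D2:**
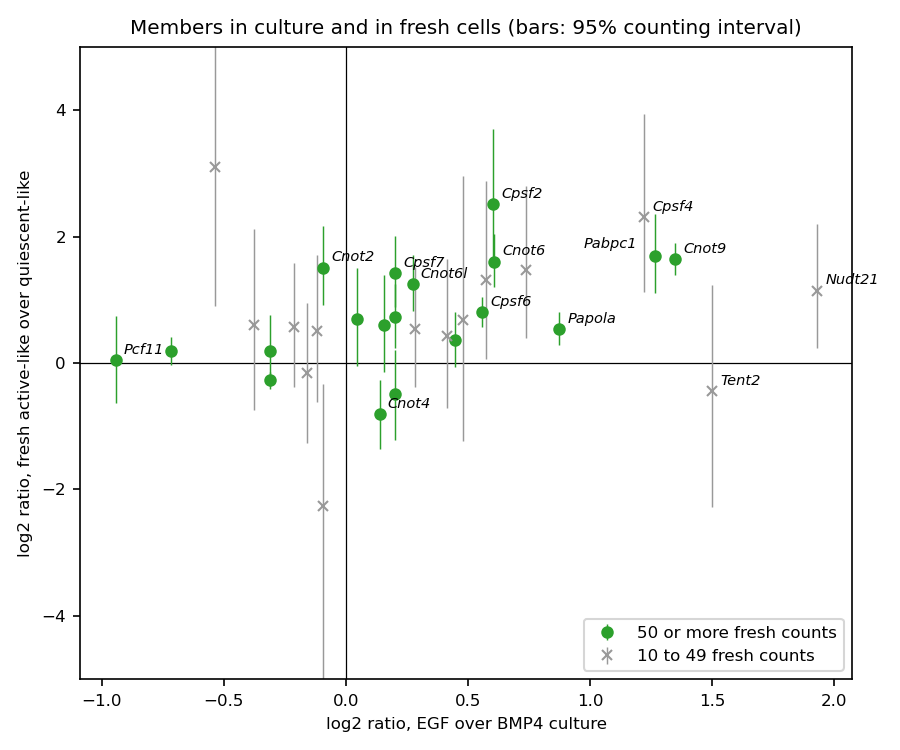
Each point is a member; the horizontal axis is the log2 ratio of EGF over BMP4 culture and the vertical axis the log2 ratio of active-like over quiescent-like fresh cells, for the 33 members with 10 or more fresh counts. Nudt21, Pabpc1, Cnot9 and Cpsf4 lie at 1 or more on both axes, while Tent2 lies below 0 on the vertical axis.

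Among the related genes, Cpeb3 and Cpeb4 were lower in active-like cells. Cpeb3 had 11.9 CPM in active-like and 142 CPM in quiescent-like cells (11.9-fold, interval for the ratio of active-like over quiescent-like 0.0411 to 0.156), and Cpeb4 had 81.5 and 411 CPM (5.05-fold). The antiproliferative deadenylase recruiter Btg2 differed between the libraries, with 1454 CPM in active-like and 317 CPM in quiescent-like wildtype cells but 1051 and 1068 CPM in the library labelled APLP1-/-. Larp4b, listed here among other binding proteins and PABP partners, had 147 and 144 CPM in wildtype and 271 and 80.1 CPM in the other library. The pooled ratios of both genes (1.91-fold and 1.90-fold) thus rest on 1 library each, and the difference between libraries was not tested.

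For the comparison of genotypes, the targeted gene was checked first. Aplp1 reached 246 counts, or 217 CPM, in wildtype cells but 54 counts, or 44.0 CPM, in those labelled APLP1-/-. Cells could be given to 1 of 3 hashtags in 463 of 2209 and 406 of 1879 cells, and each hashtag is taken here as 1 mouse, which the labels do not state. By hashtag, Aplp1 stood at 100.9, 228 and 218 CPM in wildtype and at 0, 94.0 and 0 CPM in the other library, where all 7 counts of tagged cells belonged to hashtag 2. That hashtag goes against its label, so tests are given with and without it. Most cells had no assigned hashtag, so the whole-library values include its cells. The sources used here do not say which part of Aplp1 is deleted.

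Over the whole libraries, members were slightly higher in the library labelled APLP1-/-, with a median log2 ratio of 0.39 over 34 members against 0.00 over 10311 genes. None was 2-fold higher (8.46% of all genes), and 2 were 2-fold lower (8.98%). Wdr33 had 27 counts in wildtype and 9 in the other library (3.25-fold lower, 1.48 to 7.86), and the nuclear polymerase gene Papolg had 92 and 41 (2.43-fold lower, 1.67 to 3.60). The library labelled APLP1-/- also held more active-like cells, 494 against 364, and within quiescent-like cells alone the members' median was −0.01, over 26 members. In cells with 500 or more genes it was 0.07 over 27 members, of which 8 were 2-fold higher (14% of all genes) and 4 were 2-fold lower (12.6%).

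By hashtag, 5 members had enough counts for edgeR's quasi-likelihood test, and 0 of them passed an adjusted p of 0.05, as did 0% of the 1109 genes tested. At an unadjusted p under 0.05 there were 61 genes, among them 1 member, and DESeq2 called 1 gene and 0 members. That member was Cnot9, which stood at 133, 205 and 213 CPM in the wildtype hashtags and at 445, 848 and 280 CPM in the others. The log2 difference was 1.47 (SE 0.47, adjusted p = 0.48 by edgeR with Benjamini-Hochberg adjustment). The highest value was that of hashtag 2; without it the log2 difference was 0.88 (adjusted p = 0.98 by edgeR). Papola differed by 0.57, Pan3 by −0.26, Cpsf6 by −0.10 and Cstf2t by −0.04 on the log2 scale, each within the spread between hashtags. Without hashtag 2 these differences were 0.14, −0.27, −0.48 and 0.12. Genotype and library cannot be told apart, since each genotype is 1 library.

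In the neurospheres, the question was which transcripts are bound by CPEB4. All 36 members passed the filter on low counts, among 17062 genes tested. Between the wildtype and the knockout CPEB4 precipitates, 0 members were called by edgeR's quasi-likelihood test with Benjamini-Hochberg adjustment, as were 0% of all genes. At an unadjusted p under 0.05 there were 136 genes and 0 members, and DESeq2 also called 0. The members' median log2 difference was −0.07, against −0.06 over all genes, and it ran from −0.72 for Clp1 to 1.40 for Pabpn1. Replicates did not overlap for 2 members, Pan2 and Pabpn1, both higher in wildtype (7.71% of all genes), and for 0 members lower (5.75%). Pabpn1 rests on 3 and 3 counts against 1 and 1.

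The label of the knockout precipitates could be checked on Cpeb4. Its counts were 3109 and 1025 in the wildtype precipitates and 4825 and 1285 in those labelled CPEB4-/-, so the transcript was not lower there. The sources used here do not say whether the counted part of Cpeb4 lies outside the deletion, and these libraries are called by their label. The 2 knockout replicates were less alike (r = 0.879 over genes) than those of the other groups (0.964 to 0.973). In these bulk libraries, fewer cells holding a transcript and fewer copies per cell cannot be told apart.

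Against IgG, the control for unspecific precipitation, 0 members were called in the wildtype CPEB4 precipitates, as were 0% of all genes by edgeR. At an unadjusted p under 0.05 there were 1360 genes and 0 members, and DESeq2 called 10 genes and 0 members. Replicates did not overlap for 5 members with CPEB4 higher (25% of all genes) and for 9 with CPEB4 lower (27.9%). The median log2 difference was −0.03, against 0.00 over all genes. Parn was at 33.2 and 27.2 CPM in the CPEB4 precipitates and at 14.9 and 19.1 CPM with IgG, the largest difference upward (log2 0.83, SE 0.43, adjusted p = 0.60 by edgeR). Tent2, the polymerase that CPEB proteins recruit, was at 67.7 and 37.6 CPM with CPEB4 and at 31.6 and 45.0 CPM with IgG, so its replicates overlapped.

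**Figure D3:**
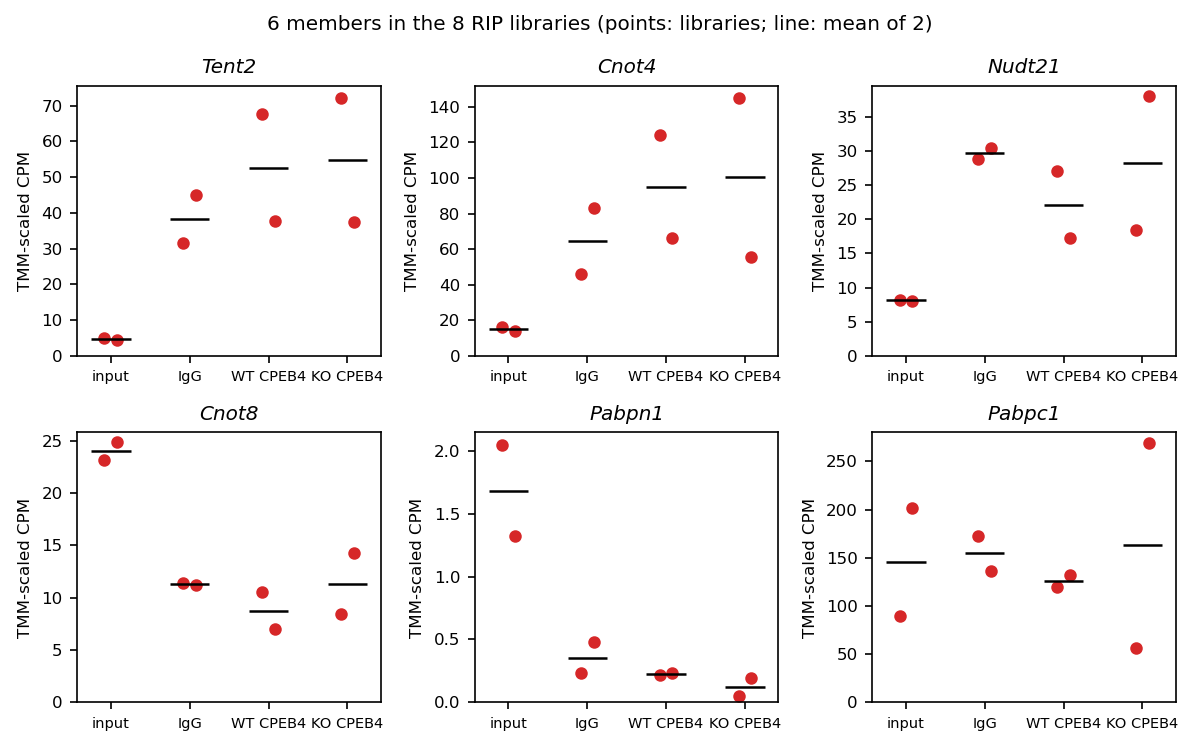
Level of 6 members (Tent2, Cnot4, Nudt21, Cnot8, Pabpn1 and Pabpc1) in the 8 RIP libraries, in TMM-scaled CPM on linear axes from 0 that differ between panels; points are libraries and lines the mean of 2. The 6 were picked after their values were seen, and Pabpc1 is the one not called against input. For Tent2 both input libraries (5.11 and 4.45 CPM) lie below all 6 precipitates, and the IgG, wildtype CPEB4 and knockout CPEB4 libraries lie among each other.

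Against input RNA, 16 members differed in the wildtype CPEB4 precipitates, 12 higher (27.4% of all genes were) and 4 lower (27.6%). The knockout precipitates gave 13 higher (27.2%) and 4 lower (25.2%), and the IgG precipitates 7 higher (18.2%) and 2 lower (15.6%). The shares of members called higher were near those of all genes, and those called lower were smaller; neither difference was tested. The 3 comparisons share the input libraries and so are not independent. The medians over members were −0.11, 0.09 and 0.09, against −0.09, −0.06 and −0.13 over all genes. The input and precipitate libraries differed strongly in composition: normalisation factors were 2.71 and 2.86 for input, 0.428 and 0.555 for IgG and 0.439 to 1.24 for CPEB4, and the gene Cmss1 alone took 7.97% to 12.4% of the counts of each precipitate but 0.01% of input. Differences are therefore relative to the other genes. With raw library totals, under which the median of all genes was −1.57, −1.80 and −2.62 in the 3 comparisons, 0 members were called higher than input and 18, 19 and 24 were called lower.

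Among the polymerases, Tent2 differed most from input of all members. It was at 5.11 and 4.45 CPM in input, 31.6 and 45.0 CPM with IgG, 67.7 and 37.6 CPM with wildtype CPEB4 and 72.1 and 37.4 CPM in the knockout precipitates. All 6 precipitates lay above both inputs. The log2 difference from input was 3.46 (SE 0.49, adjusted p = 0.00083) with wildtype CPEB4, 3.52 with knockout CPEB4 and 3.00 with IgG. Papolg, at 3.63 and 2.48 CPM in input, was at 8.14 and 7.37 CPM with IgG and at 10.7 and 7.13 CPM with wildtype CPEB4 (log2 1.54, adjusted p = 0.013). Papola was not called, at log2 differences of 0.63 to 0.80.

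The cleavage factors were divided. Cstf3, the CstF subunit that bridges to CPSF, rose from 13.4 and 12.3 CPM in input to 82.7 and 37.5 CPM with wildtype CPEB4 (log2 2.22, SE 0.59, adjusted p = 0.010), and was at 28.4 and 49.8 CPM with IgG (log2 1.61, adjusted p = 0.056). The other CstF subunits fell. Cstf1 was at 22.2 and 19.0 CPM in input, 10.2 and 7.37 CPM with IgG and 9.34 and 7.52 CPM with wildtype CPEB4 (log2 −1.29, adjusted p = 0.015), and Cstf2t had a log2 difference of −1.50 (adjusted p = 0.031). Wdr33 was at 24.6 and 23.1 CPM in input and at 98.8 and 70.5 CPM with wildtype CPEB4 (log2 1.83), while the remaining CPSF subunits were not called there. Fip1l1, the CPSF subunit that holds the polymerase, was called in the knockout precipitates alone (log2 1.10, against 0.97 in wildtype and 0.70 with IgG), and the difference between those precipitates was within their error (−0.13, SE 0.39). Nudt21 was at 8.14 and 8.09 CPM in input, 28.8 and 30.4 CPM with IgG and 27.1 and 17.2 CPM with wildtype CPEB4, so it was as high with IgG as with the antibody to CPEB4. Pcf11 had a log2 difference of 1.30 in both CPEB4 comparisons and 0.97 with IgG.

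Of the tail-binding proteins, only Pabpn1 was called, and it was lower. It had 102 and 57 counts in the inputs and between 1 and 3 in each precipitate, so its fitted log2 differences (−2.86 with wildtype CPEB4, −4.26 in the knockout precipitates and −2.15 with IgG) rest on very few counts. Pabpc1 varied widely within groups, at 90.04 and 202 CPM in input, 173 and 136 CPM with IgG, 119 and 132 CPM with wildtype CPEB4 and 56.3 and 269 CPM in the knockout precipitates. No difference was detectable for Pabpc1 against that spread.

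Within CCR4-NOT, 4 of 11 subunits were higher than input with wildtype CPEB4 (27.4% of all genes were) and 1 was lower (27.6%). Cnot4 was at 16.4 and 14.2 CPM in input, 45.8 and 82.9 CPM with IgG and 124 and 66.1 CPM with wildtype CPEB4 (log2 2.64, SE 0.57, adjusted p = 0.0039). Cnot1, the scaffold of the complex, was at 19.3 and 24.6 CPM in input and at nearly the same level in all precipitates, with 87.0 and 84.9 CPM with IgG, 80.7 and 89.3 CPM with wildtype CPEB4 and 91.0 and 74.0 CPM in the knockout. Its log2 differences were 1.97, 1.95 and 1.91. Cnot2 (log2 2.19) and Cnot6l (1.88) were the others that rose with wildtype CPEB4. Cnot8, the paralogue of the catalytic subunit Cnot7, was at 23.2 and 24.9 CPM in input and at 10.5 and 6.97 CPM with wildtype CPEB4 (log2 −1.46, adjusted p = 0.011), whereas Cnot7 was not called (−0.39).

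Both remaining deadenylase genes with a call were higher than input. Pan3 was at 32.8 and 17.3 CPM in input, 68.4 and 103 CPM with IgG, 156 and 91.8 CPM with wildtype CPEB4 and 171 and 90.2 CPM in the knockout precipitates (log2 2.31, SE 0.53, adjusted p = 0.0052 for wildtype CPEB4). Pan2 was at 18.5 and 9.23 CPM in input and within that range in all 6 precipitates (log2 −0.08). Parn had a log2 difference of 1.62 (adjusted p = 0.011) with wildtype CPEB4 and 1.39 in the knockout, and was not called with IgG (0.79).

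**Figure D4:**
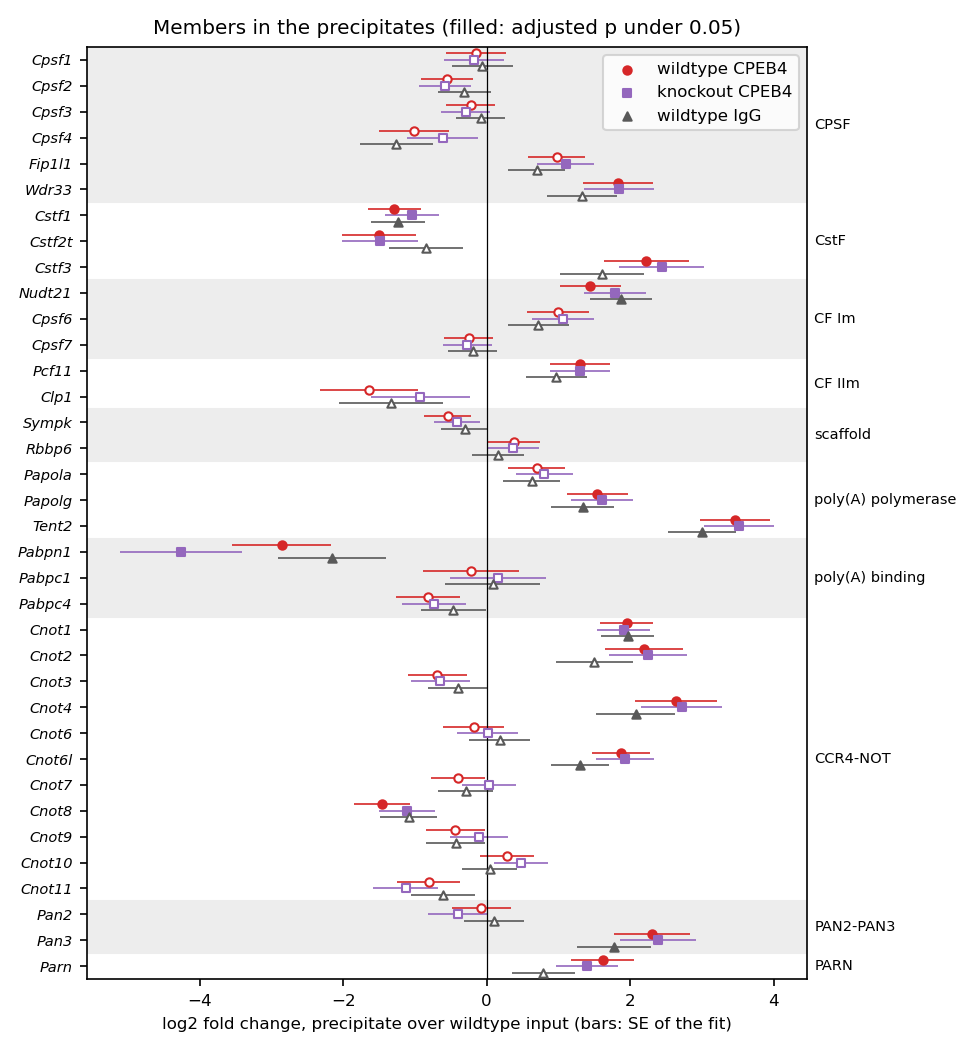
Log2 difference of each member from wildtype input in the wildtype CPEB4, knockout CPEB4 and wildtype IgG precipitates, with the standard error of the fit; filled symbols passed an adjusted p of 0.05. No member was called between wildtype CPEB4 and either of the other precipitates; Tent2 (3.46, 3.52 and 3.00) lies at one end and Pabpn1 at the other.

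The calls rested on few libraries. Leaving out each library in turn gave 5 to 23 members called with wildtype CPEB4, 5 to 26 in the knockout precipitates and 1 to 18 with IgG. The number called over all genes also varied widely between these fits, so the ranges are not particular to the members. In each fit the filter on low counts was applied anew. The lowest count with wildtype CPEB4 came without its replicate 1 (5), followed by input 2 (7) and input 1 (10). In the knockout precipitates the count was 5 without input 2, 8 without knockout replicate 1, 9 without input 1 and 26 without knockout replicate 2. With IgG it was 1 without input 1 or without IgG 2, 2 without input 2, 3 without IgG 1, 5 without either wildtype CPEB4 library, and 18 and 17 without knockout replicates 1 and 2. Tent2 stayed called in 14 of 15 alternatives in each of the 3 comparisons, while Fip1l1 was called in 4 of 15.

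Members called higher than input had longer annotated genes than those called lower, with some overlap. With wildtype CPEB4, the 12 higher members had a median annotated span of 91.5 kb (17.6 to 130 kb, RefSeq, GRCm38.p6), the 4 lower members 8.30 kb (3.75 to 25.8 kb), and the 20 others 24.1 kb. The order was the same over all genes: among 12887 protein-coding genes tested, the 3399 higher genes had a median span of 101.8 kb, the 3370 lower genes 9.35 kb and the rest 27.2 kb. Spearman's rho between span and log2 difference was 0.831 over the members and 0.742 over all these genes, across genes that are not independent replicates. The IgG precipitates, which carry no antibody to CPEB4, had medians of 89.2 kb for the 7 higher and 8.30 kb for the 2 lower members, and 118.1 and 8.81 kb over all genes. The same Spearman correlation was 0.762 over members and 0.599 over all these genes between wildtype CPEB4 and IgG, and 0.0762 and 0.206 between wildtype and knockout CPEB4. The part of gene span in the calls of single members was not tested.

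**Figure D5:**
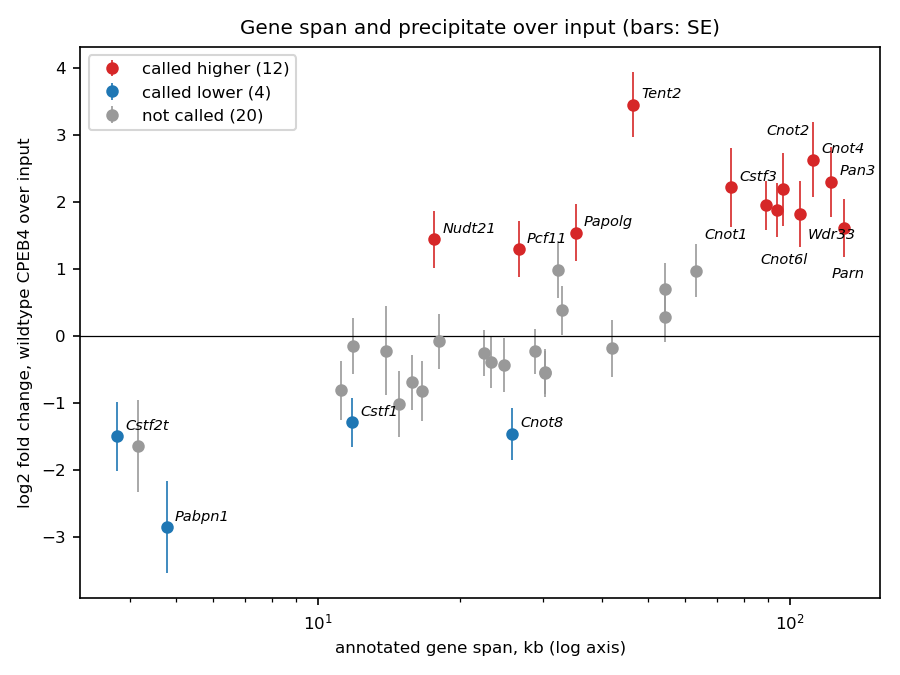
Annotated gene span in kilobases (log axis) against the log2 difference of wildtype CPEB4 precipitates from input for the 36 members, with the standard error of the fit. The 12 members called higher lie between 17.6 and 130 kb, and the 4 called lower between 3.75 and 25.8 kb.

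Of the 54 related genes, 51 were tested, and 16 were higher (27.4% of all genes) and 4 lower (27.6%) than input with wildtype CPEB4. The knockout precipitates gave 16 higher (27.2%) and 2 lower (25.2%), and IgG 13 higher (18.2%) and 2 lower (15.6%). Between wildtype and knockout, or between wildtype CPEB4 and IgG, 0 related genes differed, as did 0% of all genes. At an unadjusted p under 0.05 those last comparisons held 0 and 1 of them. Cpeb4 itself had a log2 difference from input of 3.32 (adjusted p = 0.0019) with wildtype CPEB4, 3.97 in the knockout precipitates and 2.52 with IgG. Tnrc6b, a GW182-type protein that recruits CCR4-NOT to microRNA targets, had 3.19, 3.19 and 2.74. At the other end, Ppp1ca had −3.38, −2.79 and −1.97, and the nuclear deadenylase Toe1 −1.72, −1.32 and −1.36.

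Several members overlap another protein-coding gene in the annotation: Cpsf1 overlaps Adck5, Cpsf3 Itgb1bp1, Fip1l1 Lnx1, Cstf1 Aurka, Cpsf7 Tmem216, Cnot1 Setd6, Cnot7 Vps37a and Cnot9 Usp37. For these, as for Cstf2t, reads from the overlapping gene cannot be told apart. Pabpc1 has processed pseudogenes and Cstf2t resembles Cstf2, and the sources used here do not say how reads matching several copies were counted, so the levels of both are uncertain to that extent.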

How the data were processed

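Raw counts per gene were deposited by the authors for every library: per cell for the single-cell and hashtag libraries, per library for RIP. The submitters' processing notes name mm10, Bowtie2, SAMtools and Cell Ranger; the sources used here give no versions, steps or strand setting, nor whether the counts of the fresh cells are reads or molecules.

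RIP counts were tested with edgeR 4.0.16 (R 4.3.3, limma 3.58.1; filterByExpr, TMM, quasi-likelihood test, Benjamini-Hochberg over 17062 genes, threshold 0.05) in 1 fit of all 8 libraries. CPM values are on the TMM scale there, and elsewhere are counts summed over cells, relative to their total. DESeq2 1.42.0, other size factors, raw totals, no filter, fits of the 2 groups alone, the replicate number as a block and leaving out each library were alternatives. Ratios between single libraries have exact binomial 95% intervals, which cover counting error only, and log2 ratios use a pseudocount of 0.5 counts.

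Fresh cells were clustered in scanpy 1.11.5 (Python 3.11.15, numpy 2.4.6, scipy 1.17.1; 2000 genes without the members and Aplp1, 30 components, 15 neighbours, Leiden resolution 0.5). A cluster was named where its class had a median log2 fold of at least 0.7 over its markers and at least 3 markers at 2-fold; the resolution and this rule were chosen after the first clusters were seen. Doublets and free RNA were not removed, and 13 barcodes are shared by the fresh libraries and 1 by the cultures. A cell was given to a hashtag with at least 10 hashtag counts and 75% of 1 tag. Scripts were tested on simulated data.

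Members and gene lists were chosen with earlier results of these data known. Named in full are members past the threshold or at 2-fold with 20 or more counts, up to 10 each way, the ends of each role group, and of the related genes up to 2 each way; genes named for likeness across cells were chosen after their values were seen.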

Additional observations from a re-analysis of the deposited data

Results flagged for a closer look

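Pcf11, the cleavage factor II subunit, differed between the fresh libraries in its ratio of active-like over quiescent-like cells. In the wildtype library it had 16.3 CPM in active-like and 55.1 CPM in quiescent-like cells, a log2 ratio of −1.67 that rests on 6 and 28 counts. In the library labelled APLP1-/- it had 61.5 and 24.0 CPM, a log2 ratio of 1.30 that rests on 34 and 9 counts. Each ratio's counting interval excluded 1, in opposite directions (0.1002 to 0.728 and 1.203 to 6.07). With 1 library per genotype the difference between these ratios was not tested.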

How the results depend on the processing

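In the RIP libraries, the number of members called between wildtype CPEB4 and knockout CPEB4 or IgG was 0 under every alternative run. Against input, the total with wildtype CPEB4 (16) changed by over 1.5 times when a library was left out (5 to 23); with raw totals it was 18, but with 0 higher and 18 lower in place of 12 and 4. In the knockout precipitates (17) leave-one-out gave 5 to 26 and a fit of the 2 groups alone 11. With IgG (9) leave-one-out gave 1 to 18, the 2 groups alone 18 and raw totals 24. The number called over all genes also varied widely between the leave-one-out fits, so these ranges are not particular to the members. A block with the IgG numbers crossed was chosen after seeing the data. Deviations of same-numbered replicates correlated positively in the 3 group pairs without IgG (0.127 to 0.32) and negatively in the 3 with it (−0.484 to −0.21). The labels do not state a pairing, and the cause of these signs was not tested. With the IgG numbers crossed, the block gave 18, 19 and 14 members against input. With the replicate block as numbered the counts were 16, 14 and 9, and 0 in the other 2 comparisons. The shares of all genes called with a block are not given here. With raw library totals some members changed sign: with wildtype CPEB4 Nudt21 (−0.017) and Pcf11 (−0.18); in the knockout Nudt21 (−0.19), Parn (−0.10), Pcf11 (−0.34) and Fip1l1 (−0.47); with IgG Cnot4 (−0.38), Cnot1 (−0.53), Nudt21 (−0.63), Pan3 (−0.71), Papolg (−1.18) and Cnot6l (−1.19). With those totals the median of all genes was also below input. The fresh genotype median (0.39) was 0.0704 in cells with 500 or more genes and −0.0078 in quiescent-like cells; the cause was not tested. The active-like over quiescent-like log2 ratio of Pan2 was −2.26 over both fresh libraries but 1.2025 in wildtype alone. In wildtype its interval included equal levels (0.144 to 163). By hashtag, Cstf2t was at 0.0062 with the tag number as a replicate block and from −0.31 to 0.38 with a hashtag left out, and Cpsf6 at 0.029 with a 90% tag share and from −0.48 to 0.38 with a hashtag left out. The culture median kept its sign under each alternative run, from −0.39 to −0.11, as did the active-like over quiescent-like median, from 0.55 to 0.90. Depth limits the fresh values, where many members have under 50 counts.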
